A study of Canis lupus familiaris with 25 samples.

Results

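The prostate genes lost in malignant tissue were 100 Ensembl genes of 32220 counted in canine prostate samples. They were chosen by their measured values, as the genes with the greatest fall in median log2(CPM + 1) from 9 non-malignant to 9 malignant tissues. CPM is the read count per 1000000 counts on genes, with the counts of KLK2 (ENSCAFG00000002907) taken out of the total. Before ranking, 14 named cancer-related and globin genes and the 100 most abundant remaining genes of non-malignant tissue were set aside, which left 32106 ranked genes. The median CPM of the abundant genes set aside was at least 1205.

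RNA-Seq was performed on prostate tissue taken post mortem and on aspirates drawn with a fine needle under ultrasound guidance (US-FNA). Dogs were male, of several breeds, and each sample was treated as a separate dog. The 9 non-malignant tissues (PT-10 through PT-18, dogs aged 1 to 16 years) and the 5 non-malignant aspirates (US-40, US-32, US-15, US-13 and US-7, 4 to 10 years) all came from intact dogs. Of the 9 malignant tissues (PT-1 to PT-9, 8 to 12 years), diagnosed as prostate carcinoma, 3 came from intact dogs (PT-1, PT-4 and PT-8) and 6 from neutered dogs. The 2 malignant aspirates (US-4 and US-3, 9 and 10 years) came from neutered dogs. Diagnosis and neutering therefore overlap, and among the aspirates they cannot be told apart. Counts on genes ranged from 3355926 in US-13 to 6594032 in PT-12.

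The luminal cells of the prostate gland secrete proteases and phosphatases into the seminal fluid, and many of their genes need androgen signalling through the androgen receptor. The dog is an uncommon species in that it develops prostate carcinoma spontaneously, and neutering removes the main source of androgen. KLK2 and KLK4 encode secreted serine proteases of the kallikrein family, and ACPP encodes prostatic acid phosphatase. These landmark genes were set aside by the rule, but they mark the glandular tissue. KLK2 took 15.7% to 48.2% of counts in non-malignant samples and at most 0.0657% in malignant samples. KLK4 ranged from 220 to 592 CPM in non-malignant samples and from 0.169 to 6.02 CPM in malignant samples. The files do not pair Ensembl IDs with names, and the available table of gene names matched 0 of the IDs, so members are given by ID and their functions are not described.

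Among the members, the fall ranged from 4.21 to 9.29 with a median of 5.17. The member ranked 100 fell by 4.21 and the next 2 genes, outside the list, fell by 4.20 and 4.18. Median CPM of the members in non-malignant tissue ranged from 17.6 to 744, with a median of 96.2 over the members. In malignant tissue it ranged from 0 to 29.3, with a median of 0.867, and 23 members had a median of 0. These values chose the members and are a description. In bulk samples, fewer cells of a type and less RNA per cell cannot be told apart.

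ENSCAFG00000012702 ranked first. It ranged from 305 to 816 CPM in non-malignant tissue (median 627). It reached 8.46 CPM in PT-8 and at most 0.898 CPM in the other tumours, 5 of which had no count at all. ENSCAFG00000004120 ranked second, with 104 to 834 CPM in non-malignant tissue (median 390) and 32.0 CPM in PT-8. The other tumours reached at most 1.80 CPM of it. For both genes PT-8 stood above the remaining tumours, while every tumour lay below every non-malignant tissue.

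Members differed in how evenly they were expressed among the non-malignant tissues. The SD of log2(CPM + 1) over these 9 samples ranged from 0.12 to 2.84, with a median of 0.75. The most even member, ENSCAFG00000000659, kept within 178 to 225 CPM in tissue and 166 to 251 CPM in non-malignant US-FNA. The least even, ENSCAFG00000010352, ranged from 0 CPM in PT-14 to 193 CPM. Both were picked after their values were seen.

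Of 26 members with an SD above 1 and counts in every non-malignant sample, the pair with the steadiest ratio in tissue was ENSCAFG00000038832 and ENSCAFG00000039539. The former ranged from 43.2 to 785 CPM in non-malignant tissue, and its ratio to the latter kept between 1.32 and 1.70. In the non-malignant US-FNA samples, which did not choose the pair, the ratio ranged from 1.28 to 2.02 while the former varied from 111 to 418 CPM. The next pair, ENSCAFG00000015425 and ENSCAFG00000000460, had ratios of 1.31 to 2.50 in tissue and 0.474 to 1.25 in US-FNA, so that its ratio in tissue did not hold there. Both pairs were picked after their values were seen. Ambiguous alignments were left out of the counts, and why the ratio of the first pair kept steady was not tested.

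**Figure D1:**
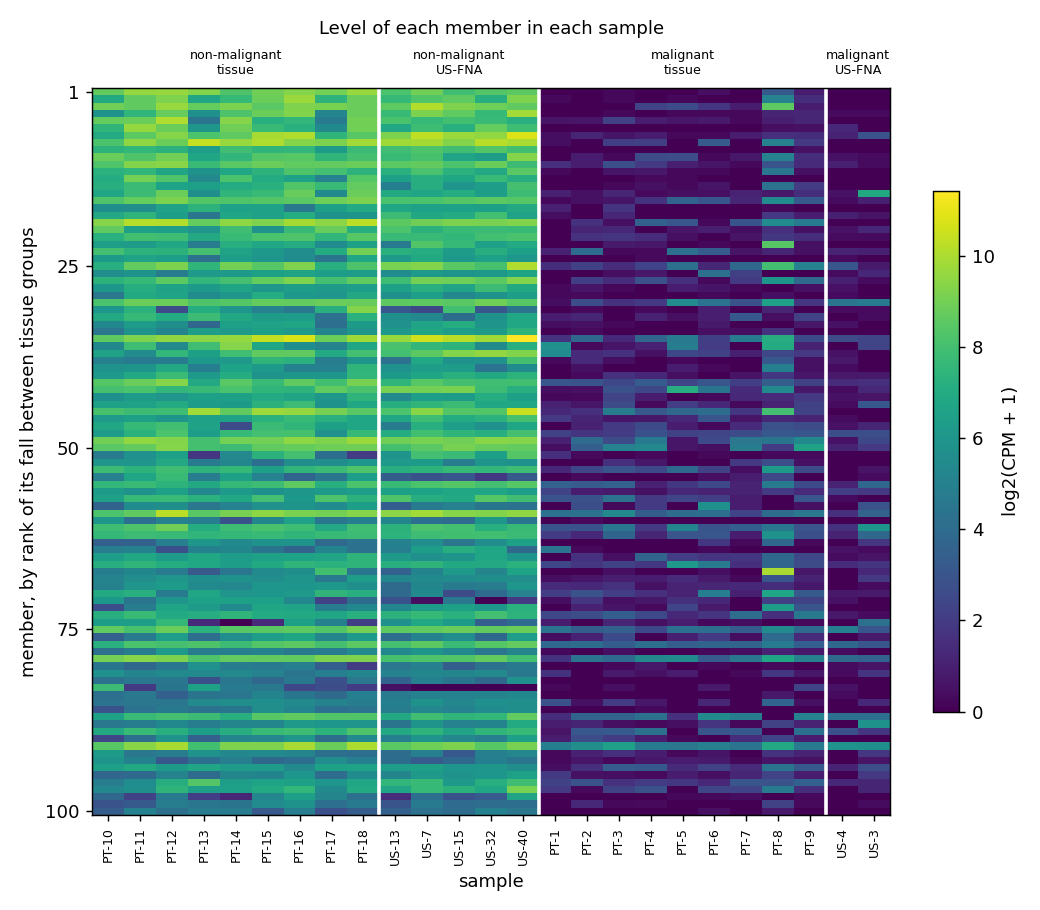
Level of each of the 100 members (rows, by rank of fall) in each of the 25 samples (columns, by group), as log2(CPM + 1) in colour. Non-malignant tissue and US-FNA are bright in most rows, malignant samples are dark, and PT-8 has more bright rows than the other tumours.

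In non-malignant tissue the members summed to between 14083 and 24124 CPM. The mean of log2(CPM + 1) over the members was 6.69 ± 0.30 (SD, n = 9) there and 1.49 ± 0.56 (SD, n = 9) in malignant tissue. The sample from the dog aged 1 year, PT-18, had a mean of 6.98, within the range of 6.25 to 7.02 of non-malignant tissue. For 82 of the 100 members, every tumour was below every non-malignant tissue. The same held for 6.61% of the 12144 genes past the low-count filter in tissue, which 96 members passed. The rule used this contrast and nothing is read from the count. With the intact tumours alone it was 84 members (9.58% of genes), and with the tumours of neutered dogs alone 94 members (10.1%).

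Loss in tumours was not complete at this depth. Taking 3 counts as the smallest detectable number, which corresponds to 0.506 to 0.674 CPM in the tumours, 19 members were detected in all 9 tumours and 9 members in none. A tumour had between 15 and 35 members without any count. These limits cover counting error only.

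Single tumours differed most in PT-8, from an intact dog. Its members summed to 3912 CPM, whereas the other 8 tumours ranged from 301 to 607 CPM. Its mean level was 2.89, against 1.03 to 1.67 in the others. Of the 100 members, 57 had their highest tumour value in PT-8. Since PT-8 helped to choose the list, its mean was computed again over a list chosen without it, an alternative added after the data were seen, and was 3.03.

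In PT-8, 13 members reached at least the lowest non-malignant tissue with at least 3 counts, compared with 0 to 4 members in each other tumour. Of the 12144 genes past the filter in tissue, 78.8% did so in PT-8 and 70.7% to 79.7% in the others, so that over all genes PT-8 lay within the span of the other tumours. The low level in tumours chose the members. Of the 13 members, 2 exceeded every non-malignant tissue in PT-8. So did 31.9% of the 12144 genes in PT-8, and 22.1% to 40.4% in the other tumours. Both members were picked after their values were seen. ENSCAFG00000006430 amounted to 1008 CPM in PT-8, 8.17 to 250 CPM in non-malignant tissue and at most 0.674 CPM in the other tumours. It made up 25.8% of the summed member CPM of PT-8. ENSCAFG00000003648 amounted to 353 CPM in PT-8, 27.2 to 140 CPM in non-malignant tissue and at most 0.753 CPM in the other tumours.

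ENSCAFG00000014889, at rank 3, also kept its non-malignant level in PT-8. It amounted to 384 CPM there and to 363 to 801 CPM in non-malignant tissue, but to at most 5.01 CPM in the other tumours. ENSCAFG00000002067 was 258 CPM in PT-8, beside 142 to 589 CPM in non-malignant tissue and at most 32.8 CPM in the other tumours. ENSCAFG00000008711 was 258 CPM, beside 223 to 927 CPM and at most 27.5 CPM. ENSCAFG00000011984 was 129 CPM, beside 34.0 to 643 CPM, and it was also in that range in PT-1, at 53.6 CPM. These further 3 were picked after their values were seen, and all lay inside the range of non-malignant tissue in PT-8. Not all members were present there, since 17 had no count in PT-8 and 23 had fewer than 3.

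KLK4 was 2.02 CPM in PT-8, within the range of the other tumours, and KLK2 took 0.00103% of counts. ACPP was 23.7 CPM in PT-8, above the 0.899 to 6.91 CPM of the other tumours and below the 81.2 to 501 CPM of non-malignant tissue. The proliferation marker MKI67 was 28.9 CPM in PT-8 and 17.1 to 519 CPM in the others. In PT-8, these 13 members were thus at or above the lowest non-malignant tissue while KLK2, KLK4 and ACPP were below it.

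**Figure D2:**
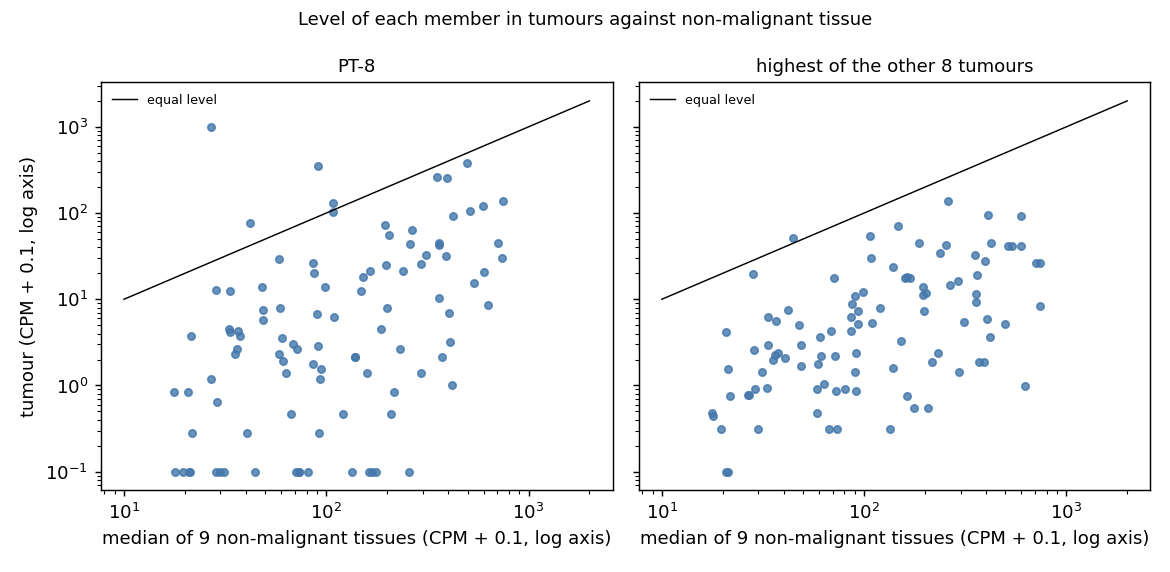
Level of each member in PT-8 (left) and in the highest of the other 8 tumours (right) against its median in non-malignant tissue, in CPM + 0.1 on log axes, with a line of equal level. In PT-8, ENSCAFG00000006430 lies far above the line at 1008 CPM.

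Beyond PT-8, 5 members reached the non-malignant range in other tumours and not in PT-8. They include ENSCAFG00000010352, whose lowest non-malignant tissue was at 0. In PT-1, from an intact dog, ENSCAFG00000006339 was 45.1 CPM against at least 44.1 CPM in non-malignant tissue, and ENSCAFG00000007505 was 19.6 CPM against at least 5.85 CPM. In PT-6, from a neutered dog, ENSCAFG00000019600 was 51.7 CPM, above the non-malignant median of 44.6 CPM. These 3 examples were picked after their values were seen. PT-4 and PT-7, from an intact and a neutered dog, had no member with at least 3 counts in that range.

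Neutered and intact dogs with malignant tissue were compared because all non-malignant samples came from intact dogs. The members were chosen for low medians over these same 9 tumours, 6 of them from neutered dogs, so that lower levels in neutered dogs are partly built in. The mean level was 1.03, 1.29 and 2.89 in the intact tumours PT-1, PT-4 and PT-8, and it ranged from 1.12 to 1.67 in the 6 tumours of neutered dogs (median 1.38). The groups overlapped, and without PT-8 the remaining intact tumours lay within or below the range of the neutered ones. edgeR tested 47 members and called 0 of them lower and 0 higher in neutered dogs at a false discovery rate (FDR) under 0.05. Over all 13375 genes tested, 0% were called in either direction. At an unadjusted p under 0.05, 6 members were lower and 0 higher, against 2.55% and 2.16% of genes. DESeq2 called 0 members in either direction, and 2 genes lower (0.0107%) and 12 higher (0.0643%) of the 18677 it tested.

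The other 53 members did not pass the low-count filter. They include ENSCAFG00000006430 and ENSCAFG00000003648, whose tumour counts lay almost wholly in PT-8. The median log2 fold change of those tested was -1.07, against -0.06 over all genes, and it was 0.56 without PT-8. When all groups were fitted together, edgeR called 4 members and 0.0915% of the 15296 genes tested lower in neutered dogs. With PT-8 left out of that fit it was 1 member and 0.0528% of 15158 genes. The 4, named after their values were seen, were ENSCAFG00000003648, ENSCAFG00000006430, ENSCAFG00000012236 and ENSCAFG00000014889. The 1, likewise, was ENSCAFG00000007505, whose tumour count lay almost wholly in PT-1. Of these members, only ENSCAFG00000014889 passed the filter among tumours alone. The others entered the fit of all groups through the non-malignant samples, where they are high, so nothing is read from these counts.

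**Figure D3:**
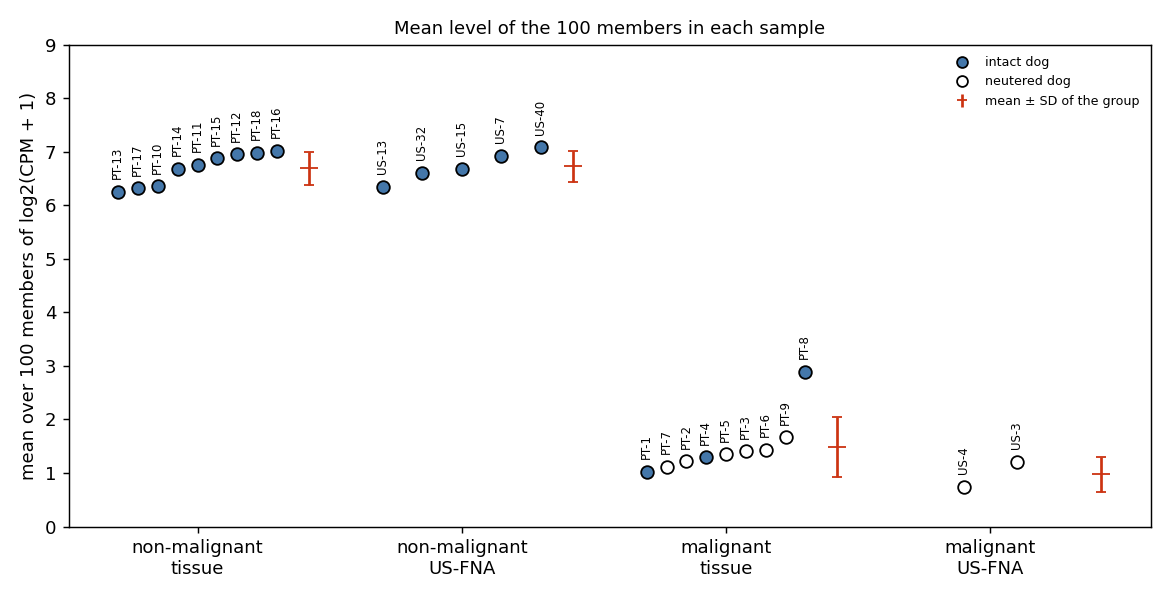
Mean over the 100 members of log2(CPM + 1) in each sample, by group, with filled points for intact and open points for neutered dogs and the group mean ± SD in red. Among intact tumours, PT-1 (1.03) sits just below the tumours of neutered dogs, PT-4 (1.29) among them and PT-8 (2.89) above them.

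Malignant and non-malignant US-FNA samples did not enter the rule, so that they show whether the members were low in malignant aspirates too. In non-malignant US-FNA the mean level ranged from 6.35 to 7.08 (6.73 ± 0.28, SD, n = 5). It was 0.75 in US-4 and 1.21 in US-3. The members summed to 211 CPM in US-4, 507 CPM in US-3 and 15876 to 27325 CPM in non-malignant US-FNA. The diagnoses thus did not overlap.

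edgeR called 92 members lower in malignant US-FNA and 0 higher, of 99 tested, while 14.4% of the 12780 genes tested were called lower and 18.6% higher. Both malignant samples lay below all 5 non-malignant samples in 95 of the 99 members and in 27.5% of all genes. Members passed the low-count filter through the non-malignant samples, where they are high. With no filter, 94 of the 100 were called lower and 0 higher, against 7.37% and 11.8% of 23092 genes. DESeq2 called 94 lower and 0 higher, against 14.4% and 18.4% of the 15146 genes it tested. At an unadjusted p under 0.05 edgeR had 94 lower and 0 higher, against 2531 genes lower (19.8%) and 3194 higher.

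The median log2 fold change of the members tested was -7.50, against 0.08 over all genes. Over the 2 malignant samples, 44 members had fewer than 3 counts, and 23 of them had none. With these 44 set at the smallest detectable level, 3 counts over the pair, the median log2 ratio of the 100 members was -7.12. The 5 globin genes, which mark red blood cells, summed to 29753 CPM in US-4 and 39787 CPM in US-3, and to 408 to 28282 CPM in non-malignant US-FNA. Their part in the result was not tested. In US-13, where globins reached 28282 CPM, the mean member level was 6.35.

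The largest log2 fold changes fitted by edgeR were in ENSCAFG00000005458 (-14.42) and ENSCAFG00000014889 (-13.74), which had no count in US-3 or US-4. ENSCAFG00000005458 was 872 CPM in US-13, 947 in US-7, 635 in US-15, 1153 in US-32 and 995 in US-40. It was at least 2461-fold lower in malignant US-FNA (edgeR FDR 0.000234). ENSCAFG00000014889 was 383 CPM in US-13, 1084 in US-7, 584 in US-15, 473 in US-32 and 391 in US-40. It was at least 1559-fold lower (edgeR FDR 0.000370). For both, every non-malignant sample was far above the malignant samples. Their presence in PT-8 differed, at 30.2 and 384 CPM. ENSCAFG00000008711, picked after its values were seen, also had no count in either and the same rounded log2 fold change as ENSCAFG00000014889, and it was at least 1639-fold lower (edgeR FDR 0.000857).

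Of the members, 7 were tested and not called, and ENSCAFG00000012181 was not tested. Of these, the following 3 were within the non-malignant range in US-3 alone. ENSCAFG00000032024 was 120 CPM in US-3 and 0.494 CPM in US-4, beside 80.0 to 224 CPM in non-malignant US-FNA. ENSCAFG00000011584 was 57.0 CPM in US-3 and 0 in US-4, beside 20.3 to 124 CPM. ENSCAFG00000010352 was 17.4 CPM in US-3 and 0 in US-4, beside 9.59 to 113 CPM. The first and the last were picked after their values were seen. In malignant tissue ENSCAFG00000032024 was at most 1.80 CPM. The study obtained no RNA integrity number for US-3, and a malignant aspirate without one was accepted on its electropherogram. It scored blood contamination in US-3 as strong. The part of RNA quality and blood in these levels was not tested.

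**Figure D4:**
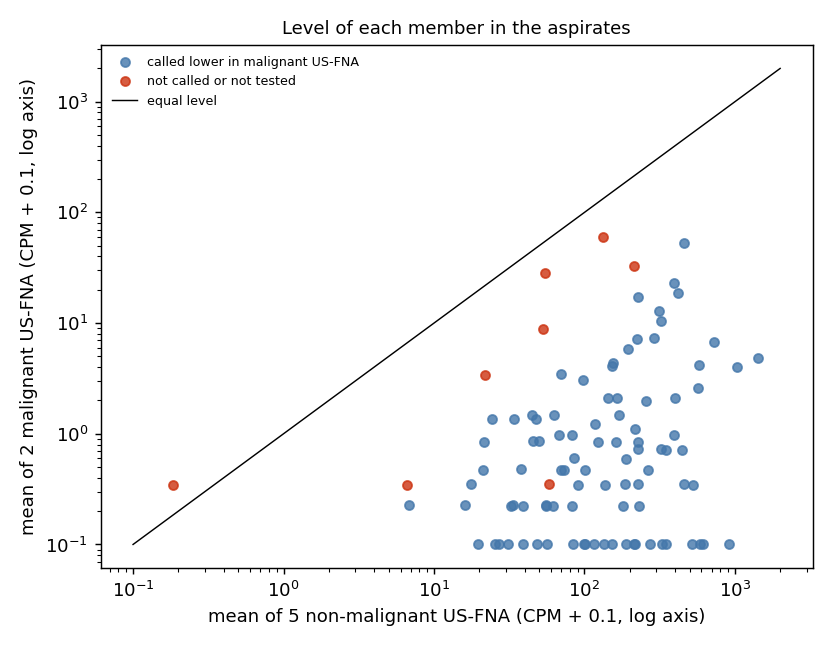
Mean level of each member in the 2 malignant against the 5 non-malignant US-FNA samples, in CPM + 0.1 on log axes, with a line of equal level. Blue points are the 92 members called lower in malignant US-FNA and red points the 7 not called and the 1 not tested.

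Malignant US-FNA was also compared with malignant tissue, whose low values chose the members, so that a higher level in aspirates is partly built in. edgeR called 1 of 62 members tested higher and 0 lower, against 2.32% and 0.170% of the 14158 genes tested. The median log2 fold change was -1.77 over the members tested and -0.07 over all genes, and 47 of the 62 were negative. The other 38 members did not pass the low-count filter. ENSCAFG00000014889, for example, had no count in either aspirate and passed it through malignant tissue alone. Nothing is therefore read from the median or the signs. At an unadjusted p under 0.05, 9 members were lower and 2 higher, against 5.33% and 9.83% of genes. DESeq2 called 3 lower and 3 higher, against 2.37% and 4.87% of the 16311 genes it tested. The called member was ENSCAFG00000011584, at 0 CPM in US-4 and 57.0 CPM in US-3 and at 0.169 to 3.68 CPM in malignant tissue (log2 fold change 4.94, SE 1.13, edgeR FDR 0.0415). It rested on US-3, for which the study lists no RNA integrity number. Without US-3 only US-4 remained, with no count, and the call was lost. Leaving out any malignant tissue except PT-8 also lost the call, with FDRs up to 0.0805.

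Non-malignant US-FNA was compared with non-malignant tissue to see whether the members were as high in aspirates. The tissue arm chose the members for being high, so that lower levels in aspirates are partly built in. Mean levels overlapped, at 6.35 to 7.08 in US-FNA and 6.25 to 7.02 in tissue. All 100 members passed the filter and edgeR called 7 lower and 3 higher in US-FNA. These shares are below the 11.6% and 8.24% of the 11956 genes tested. With a sample left out, 4 to 9 members were called lower and 0 to 7 higher. DESeq2 called 10 lower and 4 higher, against 12.3% and 8.06% of the 16275 genes it tested. The median log2 fold change was -0.05 over the members and 0.02 over all genes. RNA was extracted with phenol-chloroform from aspirates and on columns from tissue, and the sample type and the extraction cannot be told apart.

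Single aspirates differed in how many members left the range of non-malignant tissue. In US-13, 17 members were below the lowest tissue and 4 above the highest, against 17.8% and 13.3% of the 11956 genes. In US-40, 6 were below and 28 above (14.6% and 30.9% of genes), and in US-7 6 were below and 18 above (11.9% and 21.7%). US-15 had 10 below and 7 above (12.6% and 13.0%), and US-32 had 8 below and 11 above (21.2% and 12.5%). Each of these counts was below the share of all genes. The mean member level was 6.35 in US-13, 6.92 in US-7, 6.68 in US-15, 6.60 in US-32 and 7.08 in US-40. The globin sum was 28282, 11507, 8189, 5482 and 408 CPM in the same order. The extremes of the 2 measures were opposite, while the 3 samples between them had the same order in both. The part of blood was not tested.

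The member lowest in US-FNA relative to tissue was ENSCAFG00000012181. It ranged from 2.83 to 223 CPM in non-malignant tissue (median 20.8), and it had 1 count over the 5 US-FNA samples, in US-13. That is below the 3 counts taken as detectable. Pooled US-FNA was 204-fold lower with 3 counts in its place, and 611-fold lower with the 1 count (95% counting interval 110 to 24133, edgeR FDR 0.00314), and all US-FNA samples were below all tissues. The tissue mean rested in part on PT-10 (223 CPM, next 92.4), without which the log2 fold change went from -8.74 to -7.61 (edgeR FDR 0.00145). ENSCAFG00000012181 passed the low-count filter through tissue alone, which also chose it for being high. Nothing is therefore read from its FDRs or its lack of overlap. ENSCAFG00000023396 ranged from 11.9 to 214 CPM in tissue. In US-FNA it was 9.32 CPM in US-13, 6.25 in US-7, 7.19 in US-15, 2.58 in US-32 and 8.18 in US-40 (log2 fold change -3.53, SE 0.72, edgeR FDR 0.00324). It also did not overlap with tissue.

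Higher in US-FNA were ENSCAFG00000007505, ENSCAFG00000006339 and, named after its values were seen, ENSCAFG00000001897. ENSCAFG00000006339 ranged from 44.1 to 396 CPM in tissue and was 254 CPM in US-13, 366 in US-7, 635 in US-15, 757 in US-32 and 605 in US-40 (log2 fold change 1.38, SE 0.39, edgeR FDR 0.0202). Without US-32 its FDR was 0.0727. ENSCAFG00000007505 ranged from 5.85 to 36.8 CPM in tissue and was 28.4 CPM in US-13, 79.9 in US-7, 140 in US-15, 106 in US-32 and 13.6 in US-40 (log2 fold change 1.53, SE 0.48, edgeR FDR 0.0331). Its call was lost without PT-15, US-7, US-15 or US-32, with FDRs of 0.0502 to 0.105. Each of the 3 overlapped between US-FNA and tissue. When all groups were fitted together, 3 members were lower and 0 higher, against 6.83% and 3.97% of genes.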

How the data were processed

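Libraries were prepared with the NEBNext Ultra kit and run on an Illumina NextSeq500 as single reads. The authors trimmed reads with Trimmomatic 0.32, mapped them to CanFam3.1 with TopHat2, counted them per Ensembl gene with htseq-count, and deposited raw read counts. Between 58.8% and 70.3% of tallied alignments per sample were assigned to no gene feature by htseq-count, run with default parameters. These and ambiguous ones were left out, and where the unassigned alignments lay was not examined.

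Members were found by the rule given with the results. Members and lists were chosen with earlier results of these data known. In R 4.3.3, edgeR 4.0.16 (TMM, filterByExpr with minimum count 10 and total 15, quasi-likelihood F test, two-sided) was fitted to the 2 groups of each comparison over all genes. P-values were adjusted by Benjamini-Hochberg, and calls were made at an FDR under 0.05. SEs were obtained by dividing each log2 fold change, without its sign, by the root of F. Named members were ranks 1 and 2 of the rule and, in each comparison, up to 2 called members in each direction with the largest fold change. Others are marked as picked later.

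Alternatives were DESeq2 1.42.0, its size factors in edgeR, no filter, KLK2 left out, an FDR under 0.00001, 1 fit of all groups, each sample left out, and other settings of the rule. The fits were also run on simulated data, from which nothing is reported here. Tables and plots were made with pandas 2.3.3, matplotlib 3.10.9, SciPy 1.17.1 and NumPy 2.4.6 in Python 3.11.15. No count columns were identical. The dog of US-3 was aspirated before and after euthanasia and gave tissue at necropsy. The study's overview lists the sequenced tissues with dogs sampled post mortem only. PT-6 shares breed, age and status with US-3 in the labels, and all samples were treated as separate dogs.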

Additional observations from a re-analysis of the deposited data

Results flagged for a closer look

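Of 37 groups of values examined for a sample far from the others, 16 had such a sample. The limit used gives about 1 in 20 by chance only for normally distributed values. CPM and small counts need not be so distributed, and where all other samples were at 0, a single count passed it. Nothing is therefore read from the 16. The measures overlap, since they describe the same members and dogs.

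In malignant tissue, PT-8 stood apart in its mean member level (2.89, next 1.67), summed member CPM (3912, next 607) and members at or above the lowest non-malignant tissue (13, next 4). It also stood apart in ENSCAFG00000012702 (8.46 CPM, next 0.898), ENSCAFG00000004120 (32.0, next 1.80), ENSCAFG00000005458 (30.2, next 8.34), ENSCAFG00000014889 (384, next 5.01) and ENSCAFG00000023396 (4.41, next 0.843).

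PT-1 stood apart among tumours in ENSCAFG00000007505 (19.6 CPM, next 0.209) and ENSCAFG00000006339 (45.1, next 4.61). PT-9 did so in ENSCAFG00000012181 (4.04 CPM, next 0.758).

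Among non-malignant tissues, PT-10 stood apart in ENSCAFG00000012181 (223 CPM, next 92.4) and PT-12 in ENSCAFG00000023396 (214 CPM, next 104). PT-14 was the tissue with 1 member at 0 counts. Among non-malignant US-FNA samples, US-7 stood apart in ENSCAFG00000014889 (1084 CPM, next 584). US-13 had the 1 count of ENSCAFG00000012181, at 0.423 CPM, below the 3 counts taken as detectable.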

How the results depend on the processing

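The list depended most on the pseudocount: with log2(CPM + 0.1) it shared 62 of its 100 members with the list as given. Other settings of the rule shared 85 to 94, and leaving out a tissue sample 94 to 98.

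For malignant against non-malignant US-FNA, 90 to 96 members were called lower when a sample was left out. At an FDR under 0.00001 edgeR called 0, edgeR in 1 fit of all groups 7, edgeR with no filter 49 and DESeq2 86, the last 3 being alternatives added after the data were seen. No share of all genes is given at this threshold, here or in the comparisons below, so nothing is read from its counts. The median log2 fold change ranged from -8.70 to -7.35. Where a malignant US-FNA sample was left out, the lone remaining sample was assumed to vary like the other group.

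For neutered against intact dogs, the count of members called lower was 4 with all groups in 1 fit. It was 1 with PT-8 also left out, an alternative added after the data were seen. Nothing is read from these counts, for the reason given with the results. The median ranged from -1.22 to 0.56 when a tumour was left out, with 0.56 without PT-8, and was 0.58 in the fit of all groups without PT-8.

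For non-malignant US-FNA against tissue, 3 members were lower and 0 higher in the fit of all groups. At an FDR under 0.00001 edgeR called 0 and 0, and DESeq2, added after the data were seen, 3 and 0. With a sample left out, 4 to 9 were lower and 0 to 7 higher. The count fell to 4 lower without PT-11, PT-12, PT-18 or US-13. It was 7 higher without PT-16, 1 higher without US-7 or US-15, and 0 higher without US-32.

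For malignant US-FNA against malignant tissue, DESeq2 called 3 lower and 3 higher with a median of -1.09. The fit of all groups called 3 lower and 3 higher, and no filter 2 higher. For these settings of edgeR no share of all genes is given, so nothing is read from their counts. At an FDR under 0.00001 edgeR called 0 higher and DESeq2, again added later, 1. With a sample left out, 0 to 3 were higher and the median ranged from -3.47 to -1.42. The log2 fold change of ENSCAFG00000011584 ranged from -5.53 without US-3 to 5.96 without US-4. The former is a fit to 0 counts in US-4, where 3 counts make 0.740 CPM, within the 0.169 to 3.68 CPM of malignant tissue, so that its size is not a measured fold. The cause of these differences was not tested.

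In malignant against non-malignant tissue, the count of members below every non-malignant tissue was 82 to 91 with a sample left out. Counts below 3 were taken as not detectable, which is a chosen limit, and few samples limit the US-FNA comparisons.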
